A study of Mus musculus with 16 samples.

Results

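The red cell membrane and its cytoskeleton were followed here through 8 genes, Slc4a1, Rhag, Kel, Ank1, Epb42, Sptb, Epb41 and Dmtn, in bone marrow, in samples labelled MSC and in tumors. The 8 genes were taken by name from a table of 55536 gene identifiers, and each matched 1 identifier. RNA-seq counts were available for 16 mouse libraries in 6 groups. Bone marrow had 3 WT libraries and 3 libraries from mice whose genotype is given as KLF K74R, the MSC samples had 2 and 2, and the tumors had 3 and 3. The mutant samples are called KO in their titles, K74R denotes a lysine replaced by arginine, and which KLF gene carries it is not named in the labels. MC38, a colon adenocarcinoma line of the mouse, gave rise to the tumors, which were taken at a volume of no more than 1000 mm3, and the series compares mice of the 2 genotypes. Tumor counts mix transcripts of the line and of the host. The abbreviation MSC is left unexpanded, and no age, sex, strain or culture is given. Nothing says that replicates came from separate mice, so p-values cover the spread between these libraries alone, and that spread may be technical.

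A red cell keeps its shape and its strength through a mesh of spectrin fixed under the lipid bilayer. The mesh hangs from the bilayer at points where ankyrin and protein 4.2 tie it to the anion exchanger, and at junctions where protein 4.1 and dematin bind spectrin and actin. Erythroid precursors in the bone marrow make most of these proteins in their last divisions, and inherited defects in several of them cause spherocytosis or elliptocytosis. Transcription of many erythroid genes is driven by GATA1, which binds GATA sequences, and by KLF1, which binds CACCC sequences.

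By role, 3 of the genes encode proteins that sit in the membrane. Slc4a1 (chr11:102348824-102366203, minus strand) encodes band 3, the chloride and bicarbonate exchanger. Rhag (chr17:40811126-40840754, plus strand) encodes the Rh-associated glycoprotein, a channel for ammonium and gases. Kel (chr6:41686330-41704339, minus strand) encodes the Kell blood group glycoprotein, an endopeptidase. The links are Ank1 (chr8:22974844-23150497, plus strand), which encodes erythroid ankyrin, and Epb42 (chr2:121017891-121037072, minus strand), which encodes protein 4.2. The mesh itself is represented by Sptb (chr12:76580488-76710547, minus strand), which encodes beta spectrin, Epb41 (chr4:131923413-132075321, minus strand), which encodes protein 4.1, and Dmtn (chr14:70601263-70636048, minus strand), which encodes dematin. All 8 are annotated as protein-coding, and positions are from GENCODE M21 on GRCm38. Annotated exons of other genes share bases with 3 of them. An antisense gene, Gm15816, shares 862 exon bases with Ank1 but held 798 counts over all 16 libraries. Sptb shares 1 base with Plekhg3, and Epb41 shares 142 with Gm10300 and 91 with Gm13063. Gm37527, which lies within Kel, shares no exon base with it. Since the strand setting of the counting is not given, reads in such stretches cannot be told apart.

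Promoter windows of 300 bases, 250 before and 50 after an annotated start, were at hand from RefSeq (GRCm38.p6) for 5 of the genes, with 3 windows for Epb41 and 1 each for Sptb, Epb42, Rhag and Kel. Those of Kel, Rhag, Epb42 and Sptb, the genes with a single window, are shown. By the patterns used, Sptb held both motifs, and Kel, Rhag and Epb42 held GATA matches alone. Each is written 5′ to 3′ on the strand of its gene. Capitals mark a GATA match (TGATAA, in which the first letter may also be A and the last may also be G, on either strand) or a CACCC match (CCNCNCCC, on either strand), and overlapping matches run together. The windows lie at chr6:41704276-41704575 for Kel, chr17:40810899-40811198 for Rhag, chr2:121036828-121037127 for Epb42 and chr12:76710498-76710797 for Sptb.
Kel: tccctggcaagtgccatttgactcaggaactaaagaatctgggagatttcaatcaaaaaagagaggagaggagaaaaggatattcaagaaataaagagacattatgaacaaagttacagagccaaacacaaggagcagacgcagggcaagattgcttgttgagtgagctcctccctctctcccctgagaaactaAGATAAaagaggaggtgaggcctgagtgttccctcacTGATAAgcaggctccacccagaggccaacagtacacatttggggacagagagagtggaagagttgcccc
Rhag: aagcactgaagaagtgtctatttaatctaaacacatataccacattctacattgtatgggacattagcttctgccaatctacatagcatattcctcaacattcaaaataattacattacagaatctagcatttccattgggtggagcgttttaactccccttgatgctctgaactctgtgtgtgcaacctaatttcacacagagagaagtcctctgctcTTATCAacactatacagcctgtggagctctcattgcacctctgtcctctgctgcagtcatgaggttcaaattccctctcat
Epb42: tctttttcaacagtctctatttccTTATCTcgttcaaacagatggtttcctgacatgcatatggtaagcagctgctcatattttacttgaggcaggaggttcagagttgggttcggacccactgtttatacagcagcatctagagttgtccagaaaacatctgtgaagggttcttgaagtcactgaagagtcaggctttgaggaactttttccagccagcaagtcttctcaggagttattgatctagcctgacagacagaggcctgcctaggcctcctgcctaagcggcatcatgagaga
Sptb: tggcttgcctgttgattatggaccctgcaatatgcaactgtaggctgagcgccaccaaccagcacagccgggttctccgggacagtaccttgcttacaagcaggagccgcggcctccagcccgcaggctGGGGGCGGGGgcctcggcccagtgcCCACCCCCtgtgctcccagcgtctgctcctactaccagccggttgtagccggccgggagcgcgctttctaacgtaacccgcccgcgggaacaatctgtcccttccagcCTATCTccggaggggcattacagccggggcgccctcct
The Kel window held 2 GATA matches, which began 56 and 19 bases before the start. In Rhag the single GATA match began 31 bases before the start, in Epb42 226 bases before it and in Sptb 12 bases after it. Sptb also held 3 CACCC matches, at 121, 119 and 96 bases before the start. A GATA match was present in 6 of the 7 windows of these genes and in 29.8% of all 32851 promoter windows of the same length. A CACCC match was present in 3 of the 7, against 49.5% of all windows. The letters CACCC also stand in the Kel window, and their reverse complement in the Rhag window, outside the longer pattern used for a match. A match is a description of the letters and no evidence of binding.

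The libraries held between 14067259 and 18923751 counts, so that the limit set by a count of 0, which is 3 counts, corresponds to between 0.159 and 0.213 CPM of a library total, CPM being counts scaled to a common library size. Levels below are CPM on library totals scaled by trimmed mean of M-values within each tissue, with the SD over libraries. Those factors are not shared between tissues. Tissue folds from edgeR come from 1 fit of the WT libraries, so they can differ from ratios of these levels. Bone marrow libraries carried the erythroid markers at a summed 32779 to 42254 CPM, and none of the 15 markers matched was at 0. In the MSC samples the erythroid sum was 213 to 472 CPM, most of it Tfrc and Fech, which many cell types make, with 6 to 8 of the 15 at 0 in each library, and the mesenchymal sum was 10806 to 14555 CPM. The same MSC libraries held macrophage markers at 1898 to 7363 CPM. In the tumors the colon epithelium markers summed to 4.38 to 8.86 CPM. Most of that was Cdh1, and Epcam was at 0.0545 to 0.632 CPM, so defining markers of colon epithelium were at or near 0 in the tumors.

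**Figure D1:**
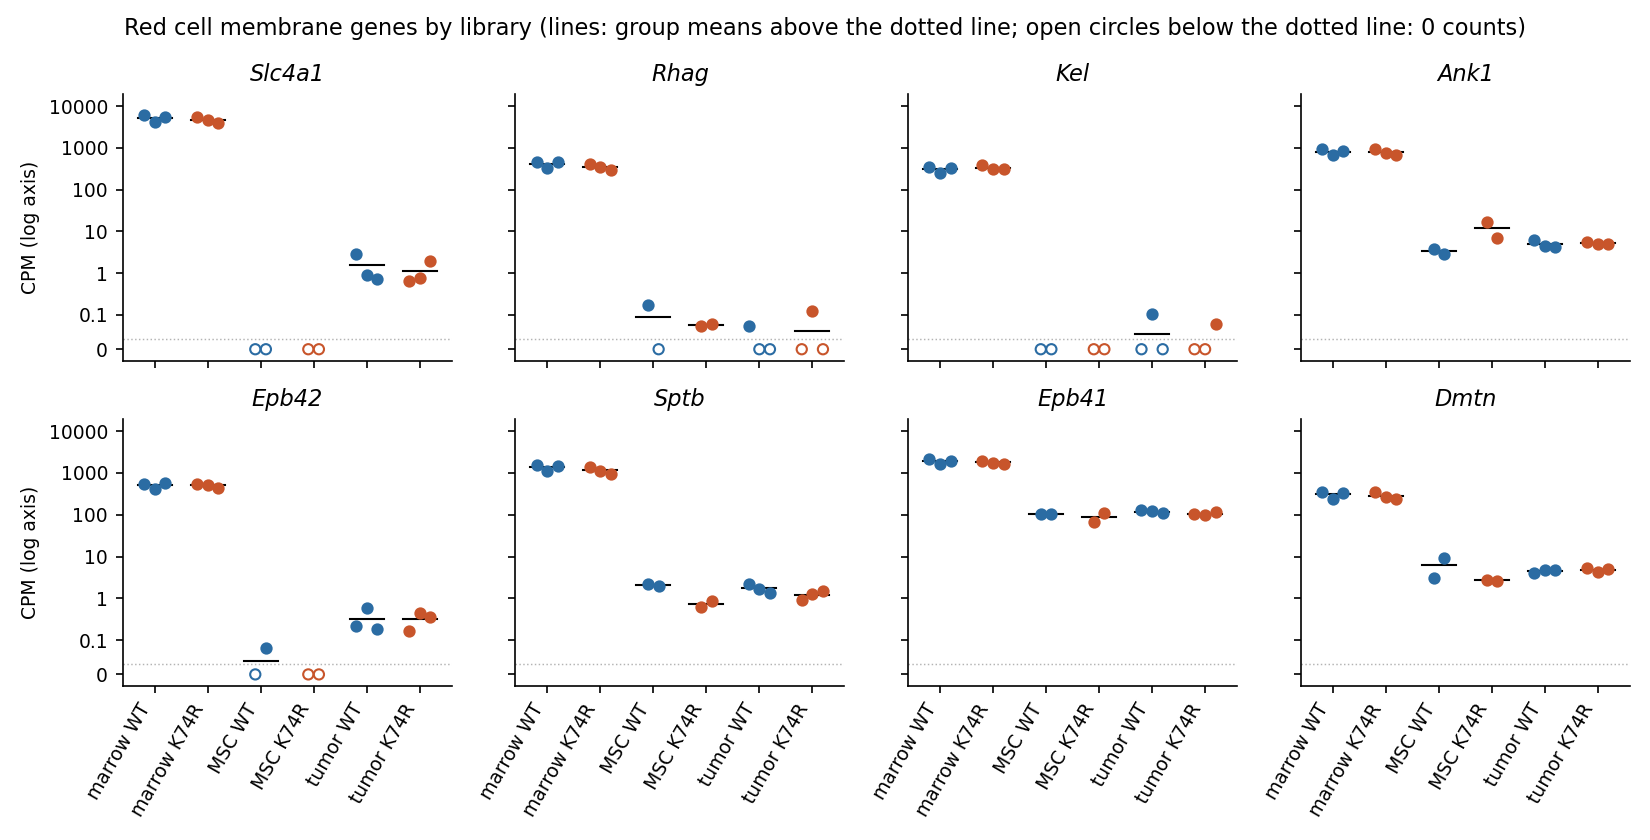
CPM of the 8 genes in each of the 16 libraries, by tissue and genotype, on a log axis; black lines are group means and open circles are libraries with 0 counts. All 8 genes are highest in bone marrow, Slc4a1 and Kel have 0 counts in every MSC library, and Epb41 keeps 66.4 CPM or more in every library.

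The first comparison asked how strongly each gene marks the bone marrow among the WT tissues. All 8 genes were higher in WT bone marrow than in WT MSC and in WT tumor (edgeR, quasi-likelihood test, Benjamini-Hochberg adjusted), and every WT marrow library lay above every WT library of the other tissues. Of all 17193 genes tested, 36.3% were called higher in marrow than in MSC and 36.4% higher than in tumor, and 42.8% and 34.9% had every marrow library above. Together the 8 genes took between 0.876% (95% exact binomial interval 0.871% to 0.881%) and 1.22% (1.21% to 1.22%) of all counts in a marrow library. In MSC they took 0.00849% to 0.0124%, and in tumor 0.0111% to 0.0144%. In bulk tissue, fewer cells of a type and less RNA per cell cannot be told apart.

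Per length of annotated exon, band 3 led the set in WT marrow, with 1078 ± 197 CPM per kb (SD, n = 3) for Slc4a1. Rhag followed at 177 ± 31.8, and Epb41, Sptb and Kel lay close together at 120 ± 18.2, 113 ± 20.3 and 111 ± 19.2 CPM per kb, less than their SDs apart. Epb42 was at 93.6 ± 14.7, Ank1 at 59.4 ± 9.87 and Dmtn at 31.3 ± 6.45 CPM per kb. The order depends on the length taken: with the longest coding transcript of each gene, Epb41 came second at 231 ± 35.0 CPM per kb. In WT tumors Epb41 was first, with 7.47 ± 0.632 CPM per kb, and no other gene of the set reached 1 CPM per kb.

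The genes fell into those with a signal in both MSC and tumor and those with almost none in MSC. Epb41, whose 4.1 protein is made in many cell types, had 107 and 105 CPM in WT MSC and 128, 121 and 108 CPM in WT tumor, against 2202, 1622 and 1933 CPM in WT marrow. It was 17.5-fold higher in marrow than in MSC (log2 4.13 ± 0.17 SE, adjusted p = 4.82e-08, edgeR) and 18.0-fold higher than in tumor (4.17 ± 0.15 SE). Dmtn was 48.4-fold higher than in MSC and 76.7-fold higher than in tumor. For Ank1 the folds were 234 and 181, and for Sptb 626 and 879. These 4 genes held 25 counts or more in every group.

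The other genes were near the limit of detection outside the marrow, apart from Slc4a1 in the tumors. Slc4a1 had 236273 counts over the WT marrow libraries, 0 over the WT MSC libraries and 83 over the WT tumors. Measured against 3 counts over the group, Slc4a1 was at least 58266-fold higher in marrow than in MSC, and Kel at least 3391-fold higher. Against WT tumor, the ratio was 3415 for Slc4a1 (95% counting interval 2754 to 4287) and 1510 for Epb42 (955 to 2549). These bounds and ratios pool counts scaled within each tissue, and the edgeR folds against tumor were 3831 and 1663. Rhag held 3 counts in WT MSC and 1 in WT tumor, which gives ratios with wide counting intervals of 1558 to 22087 and 3976 to 875084. Without molecular identifiers reads are not independent molecules, so intervals and floors cover only the error of counting.

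Between WT tumor and WT MSC, 2 of the 8 genes were called, both higher in tumor, where 67.3% of all genes tested were called in either direction (edgeR, quasi-likelihood test, Benjamini-Hochberg adjusted). Slc4a1 had 2.94, 0.895 and 0.723 CPM in the 3 WT tumors and no count in MSC (adjusted p = 0.00471). Epb42 had 18 counts over the WT tumors and 1 over WT MSC (adjusted p = 0.0354). The call on Epb42 was lost with limma-voom (adjusted p = 0.0778) and without WT MSC replicate 1, WT MSC replicate 2 or WT tumor replicate 2 (adjusted p = 0.210, 0.0578 and 0.0853, edgeR). Ank1, Sptb, Epb41 and Dmtn did not pass, with adjusted p-values of 0.146 to 0.803. Dmtn, at a log2 fold change of -0.66, was called lower in tumor without WT MSC replicate 1 (-1.27, adjusted p = 0.00231, edgeR) and was at 0.33 without WT MSC replicate 2.

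The second comparison was K74R against WT within the bone marrow. None of the 8 genes passed the threshold of an adjusted p of 0.05 in edgeR's quasi-likelihood test, against 0.773% of all 14872 genes tested. None had an unadjusted p under that value, which 17.8% of all genes had, and DESeq2 and limma-voom also called 0, against 3.58% and 0.538% of all genes. The WT and K74R libraries overlapped for all 8 genes, whereas they did not overlap for 22.9% of all genes. Of the 8 log2 fold changes 6 were below 0, their median was -0.10, and the median over all genes was -0.00052. With SEs between 0.13 and 0.17, differences of that size could not be told from the spread between libraries.

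Among the membrane proteins, Slc4a1 had 6087, 4210 and 5527 CPM in WT marrow replicates 1 to 3 and 5473, 4545 and 3897 CPM in K74R. The lowest library was K74R replicate 3 and the next lowest was WT replicate 2, so the groups overlapped. The log2 fold change was -0.19 ± 0.17 (SE, adjusted p = 0.592, edgeR). Rhag had 463, 328 and 448 CPM in the WT libraries against 411, 339 and 287 CPM for K74R. Its log2 fold change of -0.26 ± 0.16 (SE, adjusted p = 0.424, edgeR) was the furthest from 0 of the 8. Kel had 351, 248 and 322 CPM in the WT libraries against 379, 318 and 303 CPM for K74R. Kel was the one gene of the 3 whose highest library was a K74R one, with a log2 fold change of 0.12 ± 0.13 (SE, adjusted p = 0.680, edgeR).

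The linkers lay closer to 0. Ank1 had 915, 655 and 841 CPM in the WT libraries against 934, 752 and 663 CPM for K74R, a log2 fold change of -0.04 ± 0.15 (SE). Epb42 had 542, 416 and 563 CPM in the WT libraries against 549, 529 and 444 CPM for K74R, with means of 507 CPM in both groups. In both genes the WT replicate 2 library was the lowest of the 6. Of the mesh genes, Sptb had 1540, 1089 and 1487 CPM in the WT libraries against 1421, 1090 and 968 CPM for K74R, a log2 fold change of -0.24 ± 0.17 (SE, adjusted p = 0.477, edgeR). Epb41 had 2202, 1622 and 1933 CPM against 1991, 1755 and 1631 CPM. Dmtn had 357, 236 and 328 CPM against 351, 261 and 242 CPM. The lowest libraries of these 3 genes were again WT replicate 2 and K74R replicate 3.

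**Figure D2:**
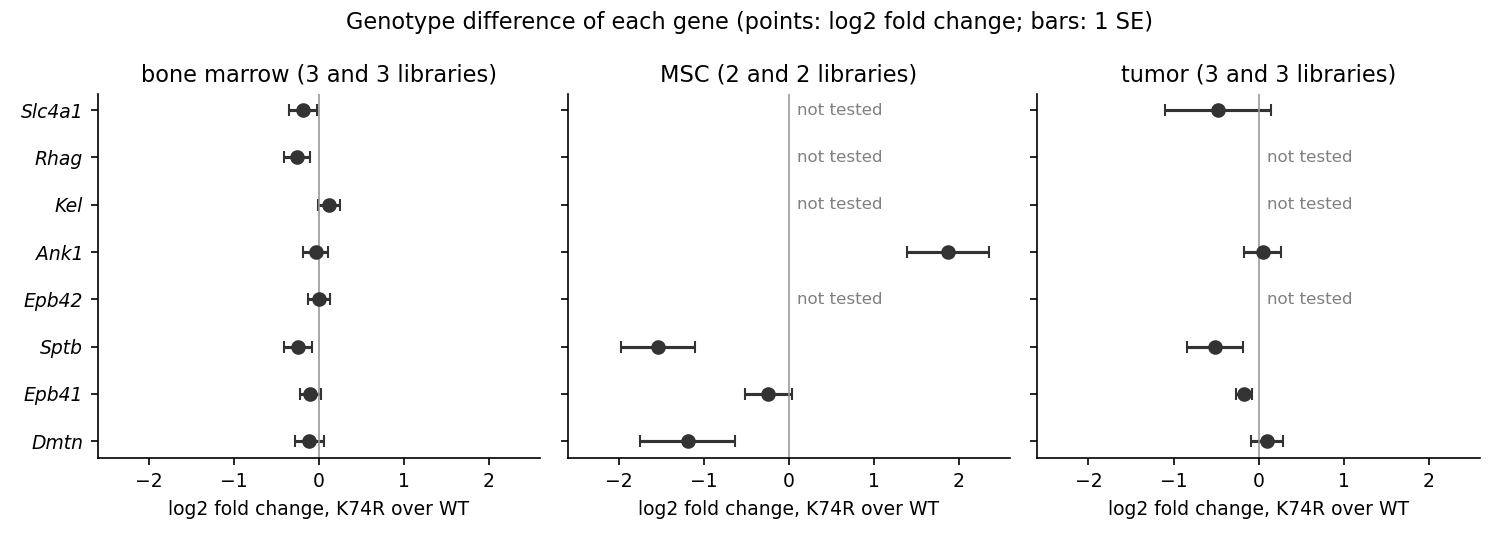
Log2 fold change of K74R over WT for each gene in bone marrow, MSC and tumor, with bars of 1 SE; genes whose counts were too low to be tested in a tissue are marked. In bone marrow all 8 points lie between -0.26 and 0.12, while in MSC Ank1 lies at 1.87 and Sptb at -1.54.

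The spread within a genotype was shared by the genes. WT replicate 2 and K74R replicate 3 were the 2 lowest of the 6 marrow libraries for all 8 genes, and WT replicate 1 was the highest for 5 of them. Relative to the mean of the 6 libraries, the median of the 8 genes on the log2 scale was 0.28, -0.24 and 0.17 in WT replicates 1 to 3 and 0.18, -0.09 and -0.26 in K74R replicates 1 to 3. The summed erythroid markers followed another order, with 35053, 32779 and 42254 CPM in the WT libraries against 39799, 42175 and 33517 CPM for K74R. They were lowest in the same 2 libraries in which the 8 genes were lowest. Neutrophil markers summed to 33343 to 35421 CPM in the WT libraries against 27979 to 30118 CPM for K74R marrow, and B cell markers to 356 to 693 and 725 to 1038 CPM. None of the 9 neutrophil and none of the 7 B cell markers was at 0 in any marrow library or passed in edgeR. The unadjusted p was under 0.05 for 5 and 6 of them, against 17.8% of all genes. Of those 5 neutrophil markers 4 were lower and 1 was higher in K74R, and the 6 B cell markers were higher. With DESeq2 4 and 1 were called, against 3.58% of all genes, and with limma-voom 0, against 0.538%. Of the 4 neutrophil markers called with DESeq2, 3 fell and 1 rose, and the B cell marker rose. The part of these markers in the levels of the 8 genes was not tested. With libraries scaled to the erythroid markers instead, the log2 fold changes of the 8 genes ran from -0.17 to 0.21 and none was called.

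**Figure D3:**
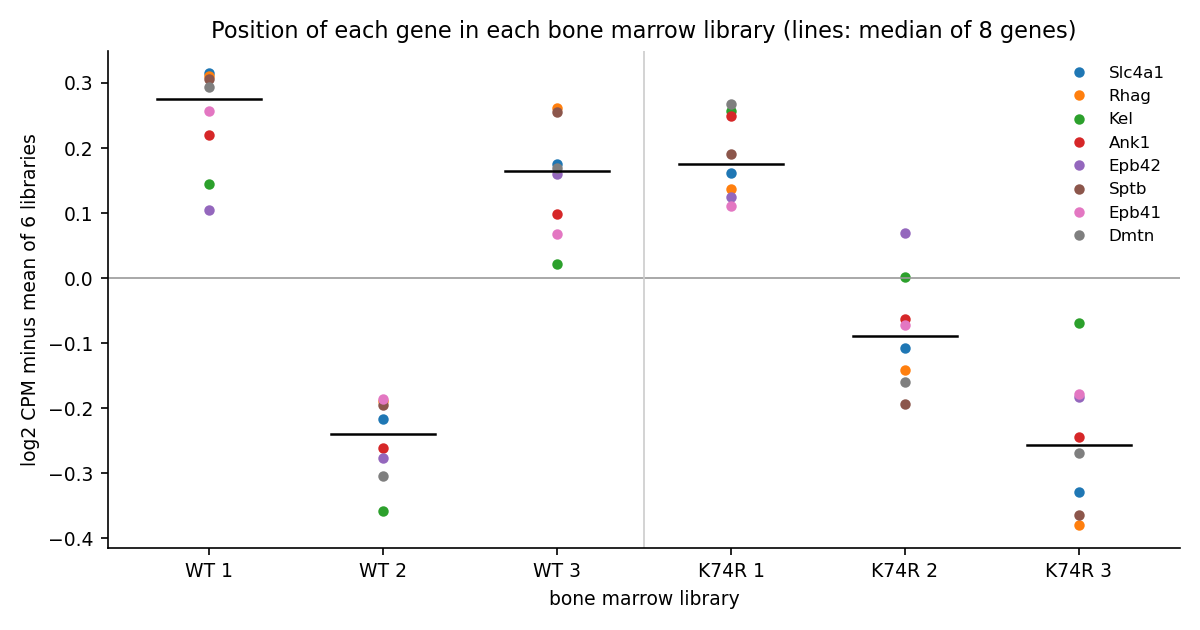
Log2 CPM of each gene in each bone marrow library, relative to its mean over the 6 libraries; black lines are the median of the 8 genes. The 8 genes sit together in each library, with medians of -0.24 in WT replicate 2 and -0.26 in K74R replicate 3.

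Since the genes shared their lowest libraries, the counts of each were also set against each other within a library, a measure chosen after the values had been seen and given as a description. Of the 28 ratios between pairs of the 8 genes, 13 (46.4%) did not overlap between WT and K74R marrow, against 30.4% of all pairs among the 2347 genes at 100 CPM or more. The 28 pairs share their genes and are not independent. Kel was in 6 of the 13. For each Rhag count there were 0.757, 0.756 and 0.719 Kel counts in the WT libraries and 0.923, 0.937 and 1.05 in the K74R libraries. For each Sptb count there were 0.594, 0.602 and 0.565 Ank1 counts in the WT libraries against 0.657, 0.691 and 0.685 for K74R. The ratio of Sptb to Rhag, by contrast, was 3.32 in each WT library and between 3.21 and 3.46 in K74R. With 3 libraries against 3, an exact two-sided permutation test of any 1 ratio cannot go below 0.1.

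**Figure D4:**
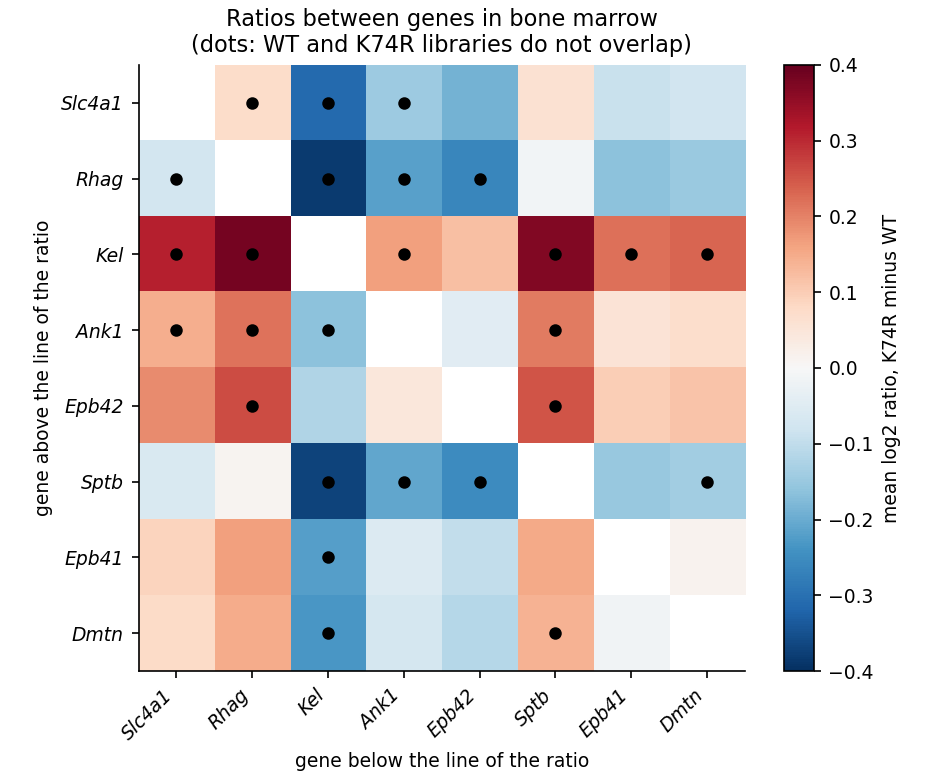
Mean log2 ratio of the row gene to the column gene in K74R bone marrow minus that in WT, for all pairs of the 8 genes; dots mark pairs whose WT and K74R libraries do not overlap. The row of Kel is positive throughout, from 0.12 against Epb42 to 0.38 against Rhag.

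The third comparison was K74R against WT in the MSC samples. Only Epb41, Ank1, Dmtn and Sptb had enough counts to be tested there. None of these 4 passed in edgeR's quasi-likelihood test, against 3.34% of all 14475 genes tested, although 2 had an unadjusted p under 0.05, as did 26% of all genes. DESeq2 called 1, Ank1, where it called 13.2% of all genes, and limma-voom called 0, against 2.8%. Groups of 2 libraries did not overlap for 3 of the 4 genes, and for 59.5% of all genes. The median log2 fold change of the 4 was -0.71, against 0.0012 over all genes.

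Ank1 had 3.70 and 2.88 CPM in the WT libraries against 17.2 and 6.98 CPM for K74R, and both K74R libraries were above both WT libraries. Its log2 fold change was 1.87 ± 0.49 (SE, adjusted p = 0.0905, edgeR), and the adjusted p fell below the threshold in 5 of 16 alternatives. Without K74R replicate 1, the library with the most Ank1, the log2 fold change was 1.09 (adjusted p = 0.320, edgeR), and without K74R replicate 2 it was 2.38 (adjusted p = 0.0410, edgeR). Sptb had 2.19 and 2.01 CPM in the WT libraries against 0.602 and 0.842 CPM for K74R, that is 70 counts against 25. Both K74R libraries were below both WT libraries, with a log2 fold change of -1.54 ± 0.44 (SE, adjusted p = 0.106, edgeR). Dmtn had 3.06 and 9.21 CPM in the WT libraries against 2.79 and 2.59 CPM for K74R, so its difference rested on WT replicate 2. Without that library the log2 fold change of Dmtn was -0.19, and with all 4 it was -1.19 ± 0.56 (SE, adjusted p = 0.248, edgeR). Epb41 had 107 and 105 CPM in the WT libraries against 66.4 and 113 CPM for K74R, and its groups overlapped.

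Globin and band 3 transcripts were at or near 0 in these libraries, but not all erythroid markers were. Slc4a1 and Kel had 0 counts in all 4, Hbb-bs, which encodes adult beta globin, had 0 counts in 3 of the 4 and 0.251 CPM in WT replicate 2, and Rhag had 5 counts in all. Where edgeR called 3.34% of all genes, 1 of the 4 erythroid markers that could be tested fell. This was Tal1, which encodes a transcription factor of blood and endothelial cells, with 8.09 and 10.5 CPM in the WT libraries against 2.52 and 3.07 CPM for K74R (adjusted p = 0.0497, edgeR). DESeq2 also called Tal1 and limma-voom did not. Markers of other cell types moved with genotype. Of the 4 endothelial markers 3 fell, Pecam1, Cdh5 and Tek (adjusted p = 0.0323, 0.0347 and 0.0327, edgeR), and their sum over the list was 206 and 1076 CPM in the WT libraries against 11.9 and 20.1 CPM for K74R. None of the 4 was at 0 in any library. The library with the most endothelial signal, WT replicate 2, was also the one with the most Dmtn. Macrophage markers summed to 7363 and 5671 CPM in the WT libraries against 1898 and 3598 CPM for K74R, with 0 of the 6 at 0 and 1 of the 6 called lower. The part of these markers in the values of Ank1, Sptb and Dmtn was not tested.

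The fourth comparison was K74R against WT in the tumors. Epb41, Ank1, Dmtn, Slc4a1 and Sptb could be tested, and none passed in edgeR's quasi-likelihood test, where 0.0406% of all 14779 genes were called. None of the 5 had an unadjusted p under 0.05, against 11.2% of all genes. Limma-voom called 0, against 0.0406% of all genes. DESeq2 called 0, against 1.37%, and gave Slc4a1 no adjusted p. All 5 overlapped between the groups, against 17.1% of genes that did not. Epb41 had 128, 121 and 108 CPM in the WT libraries against 103, 99.1 and 115 CPM for K74R tumors. Its log2 fold change was -0.17 ± 0.09 (SE, adjusted p = 0.499, edgeR). Ank1 had 6.32, 4.37 and 4.16 CPM against 5.66, 4.88 and 4.85 CPM, and Dmtn 3.98, 4.79 and 4.64 CPM against 5.18, 4.19 and 4.97 CPM. Sptb had 2.18, 1.68 and 1.33 CPM against 0.908, 1.25 and 1.50 CPM, with a log2 fold change of -0.51 ± 0.33 (SE, adjusted p = 0.563, edgeR). In each of these 4 genes at least 1 K74R tumor lay within the range of the WT tumors.

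Slc4a1 varied more between tumors than between genotypes. It had 2.94, 0.895 and 0.723 CPM in the WT tumors and 0.641, 0.751 and 1.91 CPM in the K74R tumors, from 12 to 54 counts a library. The log2 fold change was -0.47 ± 0.62 (SE, adjusted p = 0.799, edgeR), and without WT tumor replicate 1 it was 0.43. By CPM the 6 tumors stood in the same order for Slc4a1 as for Hbb-bs, which had 487, 144 and 124 CPM in the WT libraries against 70.4, 136 and 274 CPM for K74R. However, WT replicate 3 and K74R replicates 1 and 2 each held 12 Slc4a1 counts, so only library size ordered those 3. Tumors also differed in other markers: endothelial markers summed to 132 to 163 CPM in the WT libraries against 103 to 127 CPM for K74R, and macrophage markers to 680 to 746 and 417 to 594 CPM. None of these 10 markers was at 0 in any tumor. In edgeR 0 of the 4 and 0 of the 6 passed, against 0.0406% of all genes. Below an unadjusted p of 0.05 were 3 and 5, against 11.2% of all genes. With DESeq2, 1 and 3 were called lower, against 1.37% of all genes called in either direction. The part of these markers in the values of the 5 genes was not tested.

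Relative to globin, band 3 transcripts were scarcer in the tumors than in the marrow. For every 1000 Hbb-bs counts there were between 213 and 379 Slc4a1 counts in the 6 marrow libraries and between 5.51 and 9.10 in the 6 tumors, so the tissues did not overlap. Alas2, which encodes the first enzyme of heme synthesis in erythroid cells, did not show this difference. It had 79.1 to 111 counts for every 1000 Hbb-bs counts in the marrow and 70.7 to 94.8 in the tumors. These ratios were chosen after the values had been seen and are given as a description.

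**Figure D5:**
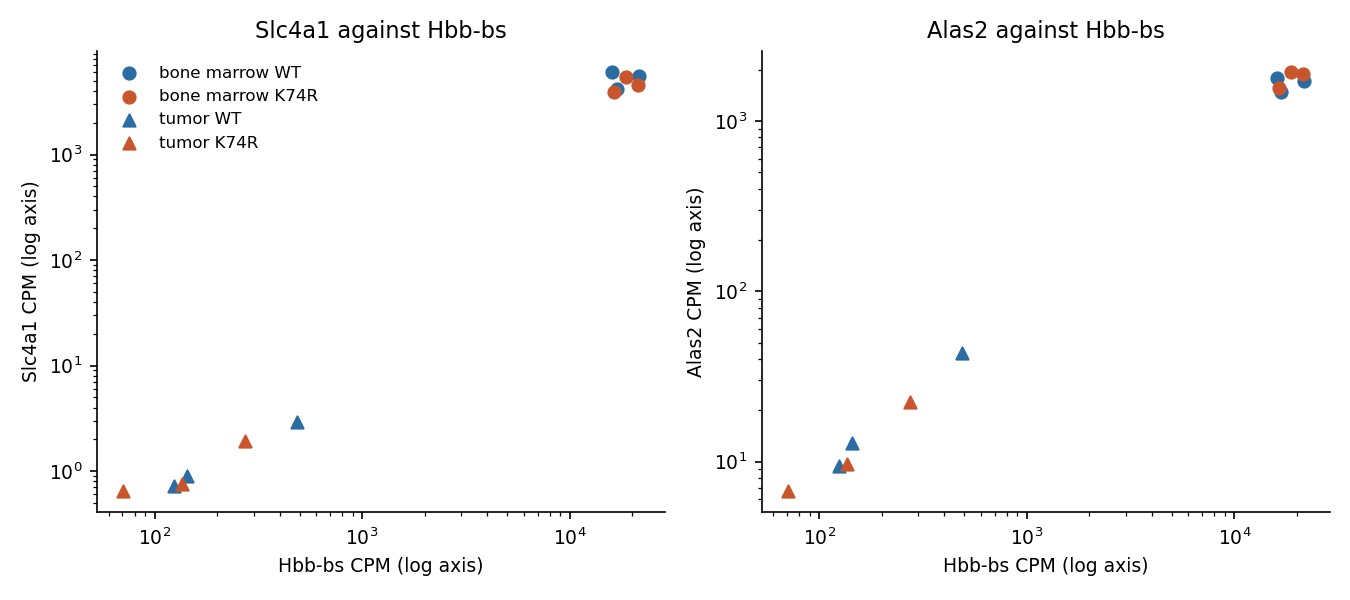
CPM of Slc4a1 and of Alas2 against CPM of Hbb-bs in the bone marrow (circles) and tumor (triangles) libraries, both axes on a log scale. Tumors rank alike in CPM of Slc4a1 and Hbb-bs, though WT replicate 3 and K74R replicates 1 and 2 tie at 12 Slc4a1 counts. The ratio of Slc4a1 to Hbb-bs counts is lower in every tumor than in every marrow library, while that of Alas2 overlaps.

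Whether the genotype difference itself differed between tissues was tested in a model of all 16 libraries, for genes tested in both tissues. Between bone marrow and MSC, 2 of 4 genes passed, where 18.8% of all 18191 genes did (edgeR, quasi-likelihood test, Benjamini-Hochberg adjusted). The K74R difference of Ank1 was lower in marrow than in MSC by a log2 difference of -1.93 ± 0.43 (SE, adjusted p = 0.00597, edgeR). That of Sptb was higher in marrow, by 1.28 ± 0.43 (SE, adjusted p = 0.0490, edgeR), and this call was lost in 12 of 25 alternatives, limma-voom among them. Dmtn did not pass, at 1.05 ± 0.47 (SE, adjusted p = 0.141, edgeR), but passed in 3 of 25 alternatives. It was 1.66 without WT MSC replicate 1 (adjusted p = 0.00501, edgeR) and 0.05 without WT MSC replicate 2. Between tumor and MSC, 1 of 4 genes passed, against 10.6% of all genes. This was Ank1, at -1.84 ± 0.46 (SE, adjusted p = 0.0198, edgeR). Without K74R MSC replicate 1, the library with the most Ank1, neither call on Ank1 held, with values of -1.14 against marrow and -1.06 against tumor (adjusted p = 0.0543 and 0.130, edgeR). The call against tumor was also lost without WT MSC replicate 2 or WT tumor replicate 1 and with limma-voom (adjusted p = 0.0748, 0.0522 and 0.141). Between marrow and tumor, 0 of 5 genes passed in edgeR, DESeq2 or limma-voom, against 0.0385%, 0.995% and 0.044% of all genes. None of the 5 had an unadjusted p under 0.05 in edgeR, as 11.5% of all genes had.

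The wider set of red cell membrane genes was summarised by a list of 30, of which 28 were tested in marrow, 23 in MSC and 22 in tumor. None passed for K74R against WT in any of the 3 tissues in edgeR's quasi-likelihood test, and the unadjusted p was under 0.05 for 4 of 28, 10 of 23 and 3 of 22, against 17.8%, 26% and 11.2% of all genes. With DESeq2 0, 3 and 0 genes of the list were called, against 3.58%, 13.2% and 1.37% of all genes. The 3 were Aqp1, which was higher, and Add2 and Tmod1, which were lower in K74R MSC. Limma-voom called 0 in each tissue, against 0.538%, 2.8% and 0.0406% of all genes. In the marrow the median log2 fold change of the list was -0.09, against -0.10 for the 8 genes. Sema7a, which encodes the John Milton Hagen blood group antigen, had a median of 8.26 CPM in the WT marrow libraries and of 13.1 CPM in the K74R ones, with no overlap (adjusted p = 0.143, edgeR). In MSC the smallest p-values belonged to Aqp1, the water channel, at 13.5 CPM in the WT libraries against 105 CPM for K74R (adjusted p = 0.0561, edgeR), and to Add2, beta adducin, at 7.50 and 0.118 CPM (adjusted p = 0.0577, edgeR). In tumor they belonged to Flot1 and Sema7a, with adjusted p-values of 0.379 and 0.420 (edgeR). Across WT tissues, 20 of 29 genes of the list were higher in marrow than in MSC and 6 lower, and 21 were higher than in tumor and 6 lower. Of all genes, 36.3% were higher and 34.5% lower than in MSC, and 36.4% were higher and 37.1% lower than in tumor. Tmod1, tropomodulin at the spectrin and actin junctions, had 92.1 CPM in WT marrow, 3.36 in WT MSC and 0.167 in WT tumor, while Slc2a1, the glucose transporter, had 11.1, 88.0 and 125 CPM.

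Most of the 8 genes have relatives that serve other cells, and 24 of these were listed. In MSC and tumor a relative held more transcript per length than the red cell gene in 7 of 8 cases. These levels are means over the libraries of both genotypes. Per kb of exon, Sptbn1, the nonerythroid beta spectrin, had 53.1 CPM in MSC and 19.2 in tumor, against 0.116 and 0.121 for Sptb. Slc4a2, the widely made anion exchanger, had 8.96 and 8.45 CPM per kb, against 0 and 0.268 for Slc4a1. Epb41l2 had 31.4 and 29.5, against 6.12 and 7.05 for Epb41. Ank3 led the ankyrins in MSC with 1.64 CPM per kb and Ank2 in tumor with 2.18, against 0.568 and 0.373 for Ank1. The exception was Rhag, whose relatives Rhbg and Rhcg were at 0.0135 CPM per kb or less in those tissues. In marrow the red cell gene had the higher of these means in each case. The margin was narrow for Epb42, at 93.7 CPM per kb against 87.3 for F13a1, the clotting factor subunit of its family. F13a1 ran from 394 to 855 CPM over the marrow libraries, and DESeq2 called it for K74R against WT, so that order may differ by genotype.

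For K74R against WT in marrow, where edgeR called 0.773% of all genes, it called 1 of the 16 relatives tested. This was Vill, a villin relative listed beside Dmtn, which had 31.1, 31.6 and 34.4 CPM in the WT libraries against 0, 0.0672 and 0.342 CPM for K74R (adjusted p = 1.32e-05, edgeR). None of the relatives of Slc4a1, Ank1, Sptb, Epb41, Epb42, Rhag or Kel passed in marrow. None of 19 passed in MSC or of 20 in tumor, against 3.34% and 0.0406% of all genes. In those tissues 5 and 4 relatives had an unadjusted p under 0.05, as had 26% and 11.2% of all genes. DESeq2 called 3 relatives in marrow (Vill, F13a1 and Ablim1), 4 in MSC and 1 in tumor, against 3.58%, 13.2% and 1.37% of all genes. Limma-voom called Vill in marrow alone, against 0.538%, 2.8% and 0.0406% of all genes in the 3 tissues. In MSC the smallest p belonged to Ank3, which had 35.1 and 34.3 CPM in the WT libraries against 98.4 and 61.0 CPM for K74R (adjusted p = 0.0655, edgeR), so that both K74R libraries were above both WT libraries, as for Ank1.

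The genes most like each of the 8 in pattern were sought among the 9106 genes with a mean of at least 10 CPM in marrow, by the root mean square difference of centred log2(CPM + 0.5) profiles. Over all 16 libraries, nearness mostly meant presence in marrow and absence elsewhere. Kel was nearest to Btnl10 (0.113), Epb42 to Kel (0.295) and Sptb to Rhag (0.339). Rhag was nearest to Elane, the neutrophil elastase gene (0.163), and Slc4a1 to S100a9, a neutrophil gene (0.615). Ank1 was nearest to Paqr9 (0.344), Epb41 to AC102342.2 (0.265) and Dmtn to Mirt1 (0.368). Over the 6 marrow libraries alone, Sptb and Rhag were nearest to each other, at 0.0314. There Slc4a1 had Emilin2, Cpox and Tmod1 as its 3 nearest and Ank1 had March3, Abcb10 and Sox6. Cpox, which encodes an enzyme of heme synthesis, was also nearest to Dmtn, at 0.0468. Kel was nearest to Paqr9 (0.0352), Epb41 to Nos1ap (0.0291) and Epb42 to Cdr2 (0.0401). The libraries share their depth and cell makeup across genes, so these distances are a description.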

How the data were processed

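RNA-seq libraries of bone marrow, MSC and MC38 tumors were made from TRIzol-extracted RNA with the KAPA mRNA HyperPrep kit, per the labels' protocols. The authors deposited unnormalised counts for each gene, with library totals of 14067259 to 18923751. Per the submitters' processing notes, the authors used FastQC, MultiQC, Trimmomatic 0.38, HISAT2 2.1.0, featureCounts 1.6.0 and build GRCm38. Not given in the sources used here are the annotation release, whether strand was used and how multi-mapping reads were handled. WT tumor column names carry a letter R, and WT MSC names hold KCF where K74R names hold KLF, for reasons not given.

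Of 55536 identifiers, 55450 were matched to a symbol in GENCODE M21. Counts were tested with edgeR 4.0.16 (R 4.3.3): filterByExpr, trimmed mean of M-values factors, the quasi-likelihood test and Benjamini-Hochberg adjustment over all genes tested, with a threshold of 0.05. SEs are the log2 fold change divided by the square root of F. Each tissue was fitted alone for K74R against WT. The 8 WT libraries shared 1 fit for the tissue comparisons and all 16 libraries 1 fit for differences between tissues. In those differences only genes that passed the filter in both tissues were counted among the 8. DESeq2 1.42.0, limma-voom (limma 3.58.1), other scalings and filters, and leaving out each library were alternatives. Scaling to erythroid markers and a crossed replicate pairing were chosen after seeing the data. The scripts were tested on simulated data. The 8 genes and the lists were chosen with earlier results of these data known. All 8 genes were named in every comparison, and from the other membrane genes and the relatives those past the threshold, or else the smallest p-values, up to 2 per direction, and the relative with the most counts per length. Genes of marker lists are given as sums and counts, and are named where a result turned on them. Other genes were named after their values were seen. Some results that these rules would name are not reported here.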

Additional observations from a re-analysis of the deposited data

Results flagged for a closer look

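The K74R difference differed between tissues, by the test of that difference itself, for Ank1 and Sptb. For Ank1 it was -1.93 on the log2 scale in bone marrow minus MSC and -1.84 in tumor minus MSC. With 1 library left out these ranged from -2.43 to -1.14 and from -2.35 to -1.06. For Sptb it was 1.28 in bone marrow minus MSC, and 1.05 to 1.54 with 1 library left out. The first of these passed in 24 of 25 alternatives and the Sptb value in 13 of 25. Both genes have few counts in MSC, 110 in WT and 430 in K74R for Ank1 and 70 and 25 for Sptb, over 2 libraries each.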

How the results depend on the processing

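All 8 genes stayed higher in WT marrow than in WT MSC and WT tumor in all 18 alternatives each, and 0 were called for K74R against WT in marrow (18 alternatives) and in tumor (17). In MSC, where 0 of 4 genes were called, 2 were without a filter on low counts, 1 with DESeq2, 3 with all 16 libraries in 1 model and 0 to 1 with a library left out. For WT tumor against WT MSC, where 2 were called, 3 were without a filter and with a filter of at least 1 CPM, the added gene being Dmtn, 1 was with limma-voom and 1 to 2 with a library left out. Of the differences between marrow and MSC, of which 2 passed, 3 did without a filter and with a filter of at least 1 CPM, Dmtn being the third, 1 with limma-voom and 0 to 2 with a library left out. Between tumor and MSC, 2 passed without a filter, 2 with a filter of at least 1 CPM, 0 with limma-voom and 0 to 2 with a library left out. In MSC, K74R against WT called 11.9% of all genes without a filter, 13.2% with DESeq2 and 24.4% with all 16 libraries, against 3.34%. Without a filter, at 1 CPM and with limma-voom, WT tumor against WT MSC called 39.1%, 21.1% and 68%, against 67.3%. The differences called 11.2%, 6.1% and 18.4% for marrow and MSC, against 18.8%, and 7.78%, 4.3% and 10.7% for tumor and MSC, against 10.6%. Between tissues, the 1 CPM filter kept all 55536 identifiers. For each of these changes the cause was not tested.

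Replicate numbers were used as a replicate block for K74R against WT, which gave 0 of the 8 genes in marrow, 1 in MSC (Ank1) and 0 in tumor, and over all genes 135, 1135 and 13. Deviations of libraries with the same number correlated at 0.28, 0.14 and -0.10 in marrow and 0.03, -0.05 and 0.05 in tumor. In MSC they correlated at -0.18 and those with unlike numbers at 0.18, values that mirror each other by construction with 2 libraries per genotype. In marrow 0.28 was the highest value of any WT and K74R pair. Whether libraries of the same number belong together is not given, and these values cannot settle it. The crossed pairing in MSC, chosen after seeing the data, called 0 of the 4 genes and 1943 of all genes.

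Small log2 fold changes turned sign. In marrow, Ank1 was 0.046 with scaling to erythroid markers, and Epb42 was -0.0011 with relative log expression factors, -0.0065 without a filter, -0.0012 with DESeq2, -0.0052 without globin genes and -0.014 with all 16 libraries in 1 model. Epb41 in WT tumor against WT MSC was 0.043 with upper quartile factors and 0.16 with library size alone, where the median of all genes moved from 0.05 to 0.14 and 0.25. For WT marrow against WT tumor, library size alone moved it from -0.01 to -0.19. With 1 library left out, the ranges in marrow were -0.19 to 0.065 for Ank1, -0.29 to 0.012 for Dmtn, -0.22 to 0.010 for Epb41, -0.13 to 0.083 for Epb42 and -0.026 to 0.22 for Kel. In MSC the range was -0.67 to 0.10 for Epb41. In tumor the ranges were -0.058 to 0.27 for Ank1 and -1.13 to 0.43 for Slc4a1. For WT tumor against WT MSC they were -1.27 to 0.33 for Dmtn and -0.094 to 0.027 for Epb41. For the difference between marrow and MSC the range was -0.21 to 0.56 for Epb41, and between tumor and MSC -0.30 to 0.47. Between marrow and tumor the ranges were -0.30 to 0.035 for Ank1, -0.040 to 0.18 for Epb41 and -0.61 to 0.95 for Slc4a1. The cause was not tested.

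Counts over all genes moved more. For K74R against WT, 115 genes in marrow became 11 to 875, 484 in MSC became 0 to 4431 and 6 in tumor became 0 to 810. For the differences between tissues, 3428 became 1938 to 4416 (marrow and MSC), 7 became 4 to 603 (marrow and tumor) and 1930 became 1110 to 3030 (tumor and MSC). Low counts limit Slc4a1, Rhag, Kel and Epb42 outside the marrow and Sptb in MSC.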
